A study of Pseudotsuga menziesii with 72 samples.

Results

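The second afternoon of a 2-day time course of Douglas-fir (Pseudotsuga menziesii) needles was compared at its start and its end, 14:00 against 18:00 on day 2. The members are the 12 libraries whose titles give these 2 collections, 6 at 14:00 and 6 at 18:00, out of 72 libraries in the series. The 6 trees are half-sibs of 3 families (family 1 with trees 1A and 1B, family 2 with 2A and 2B, family 3 with 3A and 3B), and each gave 1 library per time, so that every change was read within a tree. All trees come from one low-elevation source in the Oregon Siskiyou, were 3 years old, were grown together in Corvallis without a treatment named in the labels, and were sampled every 4 h from 2:00 on day 1. A library holds polyA RNA of several needles pooled from 4 sides of the tree, and the 2 times are single moments of 1 date.

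Plant leaves keep a daily programme of transcription, in which an internal circadian clock and the light and temperature of the moment together set when a transcript is high or low. In that programme genes of photosynthesis are typically high by day, and genes of starch breakdown and of growth often change toward evening. The files name transcripts by identifiers alone, with no gene name, sequence or position. No transcript below can therefore be given a function, and the tissue was not checked by marker genes.

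The libraries held 23819238 to 41170331 counts at 14:00 and 18681225 to 34366764 at 18:00. In tree-specific levels all 12 lay nearest the other libraries of their own tree, as did the 24 libraries of 10:00 to 22:00 on day 1 used below. Of the other 60 libraries of the series 58 did, and the remaining pair, both from 6:00 on day 1, enters none of the tests in the text. It is part of the means over the 60 other libraries and of the alternative fit of all 72. Whole-library properties were tested for a shift between the times with an exact two-sided sign-flip permutation test over the 6 trees, whose smallest possible p is 0.031. The share of counts in the 10 most abundant transcripts was 13.2% ± 3.3 at 14:00 and 13.6% ± 3.8 at 18:00 (SD, n = 6, exact p = 0.63). At a common depth of 18681225 counts, 80500 ± 4490 transcripts were found at 14:00 and 82400 ± 2850 at 18:00 (SD, n = 6, exact p = 0.125, 0.5 after adjustment over 4 measures, higher in 4 of 6 trees). Neither they nor the library total and its scaling factor passed.

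Between 14:00 and 18:00 many transcripts changed their level, most of them by less than 2-fold. Transcripts with enough counts numbered 37300, of which 3989 rose (10.7%) and 4663 fell (12.5%), together 8652 or 23.2%, at an adjusted p under 0.05 in edgeR's quasi-likelihood test with the tree as a block. The median change was 1.43-fold among those that rose and 1.47-fold among those that fell, and the 90th percentiles were 1.94-fold and 2.30-fold. The median over all transcripts tested was 0.0056 on the log2 scale. Levels are CPM, the counts of a transcript per M (mega) counts of its library, scaled by trimmed-mean (TMM) factors and not adjusted for transcript length. Without the tree in the model 300 transcripts passed (69 rose, 231 fell). The median SD between trees was 0.429 on the log2 scale at 14:00 and 0.398 at 18:00, against 0.250 for the within-tree differences (28594 transcripts with a mean of at least 1 CPM).

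Large changes were mostly falls. At least 2-fold rises were called for 328 transcripts (0.879%) and falls of that size for 721 (1.93%). At 3-fold the counts were 51 and 194, and at 4-fold 18 and 78. Falls of 2-fold or more outnumbered such rises in each of the 18 alternative fits that were run, but by ratios that varied. With no filter on low counts 1195 rose and 1577 fell that much. The counts were 44 and 217 under a filter of 1 CPM in every one of the 12 libraries, without the tree in the model 26 and 138, and in a test against a 1.5-fold change 134 and 436. Among changes of any size the balance turned with the scaling: rises made up 46.1% of calls with TMM factors, 54.1% with library totals alone and 56.4% with upper-quartile factors, which moved the median of all transcripts to 0.039 and 0.049.

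**Figure D1:**
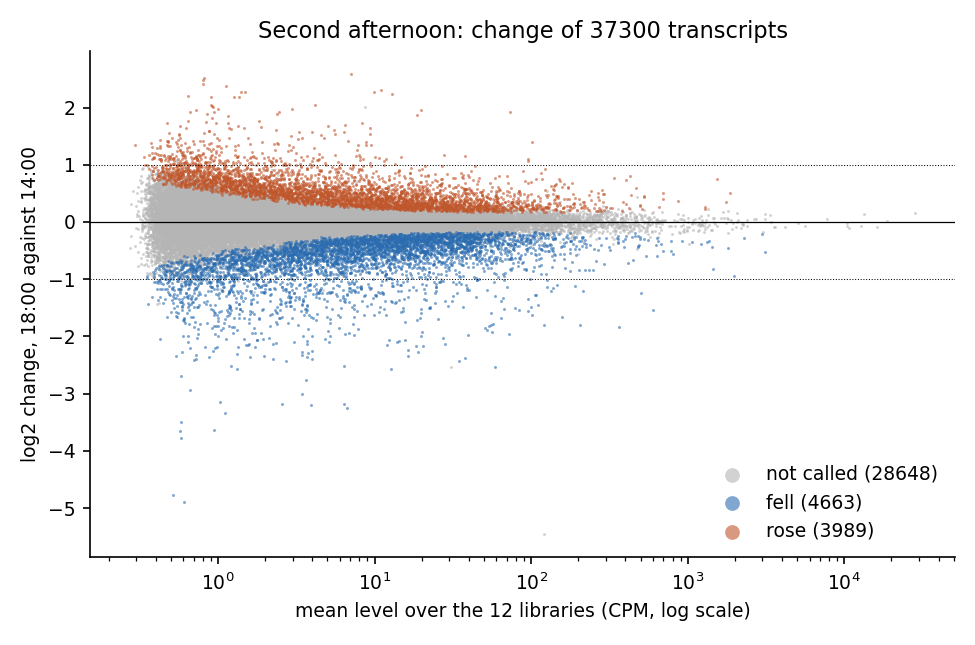
Each point is 1 of 37300 transcripts, placed by its mean level over the 12 libraries (CPM, log scale) and its fitted log2 change from 14:00 to 18:00 on day 2; orange points rose (3989), blue points fell (4663) and grey points were not called. Dotted lines mark 2-fold, beyond which 721 falls and 328 rises were called, and the grey band is wider at low levels.

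The lean to large falls was found at every level of abundance, and its ratio was highest among abundant transcripts. Transcripts were split into 4 classes of 9325 by their mean level in the 60 libraries of other collections, with medians of 0.629, 1.95, 7.11 and 33.8 CPM. In the class of lowest level, 170 rose and 268 fell at least 2-fold. In the class of highest level, 12 rose and 86 fell by that much. Calls of any size were more frequent in the upper classes. In the highest 13% rose and 16.6% fell, against 7.45% and 6.5% in the lowest. The median standard error of the log2 change was 0.0714 in the highest and 0.238 in the lowest, and its part in the number of calls was not tested. The 100 most abundant transcripts, all at 1027 CPM or more elsewhere in the series, included few calls: 5 rose, 8 fell and 87 were not called. Their largest called changes were a 1.69-fold rise and a 2.89-fold fall, and the median size of their change was 0.0760 on the log2 scale.

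As a share of all counts, the transcripts that fell gave up more than those that rose gained, a description since both groups were chosen on these libraries. The groups are those called with TMM factors, and the shares were not computed for groups called under other scalings. The 4663 that fell held 13.1% to 15.9% of a library's counts at 14:00 (median 14.6%) and 9.16% to 11.2% at 18:00 (median 10.5%). The 3989 that rose held 6.46% to 8.19% at 14:00 (median 7.57%) and 8.88% to 11% at 18:00 (median 10.2%). Those that fell at least 2-fold went from a median of 1.23% to 0.445%, and those that rose as much from 0.0610% to 0.158%. In none of these groups did the 14:00 and 18:00 libraries overlap. In bulk needles fewer cells of a type and less RNA per cell cannot be told apart.

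Few transcripts separated the 2 times without regard to tree. All 6 libraries of 18:00 lay above all 6 of 14:00 for 232 transcripts (0.622% of those tested), and below them for 441 (1.18%). Within trees the direction of change was counted, a looser criterion whose counts cannot be set against those of full separation. Of the transcripts called, 3141 of 3989 rises and 3561 of 4663 falls were seen in 6 of 6 trees, and a further 773 and 998 in 5 of 6. These counts are a description, since the calls came from the same differences. Over all 37300 transcripts, called or not, 4456 (11.9%) were higher and 4423 (11.9%) lower in every tree.

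The 2 transcripts named for the largest rises shared one pattern. They, and the 2 named for falls, have the largest fitted changes among transcripts called with a mean of at least 10 CPM and the same direction in all 6 trees (1253 rises and 1673 falls met these conditions). Size and direction on these 12 libraries chose them, so their values on the second afternoon are a description, and the adjusted p is the one from the fit of all 37300. The mean over both times passed 10 CPM only through the higher time for 3 of the 4, through 18:00 for the rising pair and through 14:00 for psme_t027226. Transcript psme_t031092 stood between 0.809 CPM in tree 1A and 9.64 CPM in tree 3B at 14:00, with a median of 2.01. At 18:00 psme_t031092 stood between 6.41 CPM in 3A and 43.4 CPM in 3B, with a median of 10.8. The times overlapped, with 1B and 3B the highest trees at both. The fitted log2 change of psme_t031092 was 2.30 ± 0.14 (SE), or 4.92-fold (edgeR adjusted p = 9.33e-07).

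Transcript psme_t030321 ranged from 1.23 CPM in 1A to 10.9 CPM in 3B at 14:00 (median 2.54), and from 5.97 to 51.3 CPM in the same trees at 18:00 (median 12.4). Its log2 change was 2.24 ± 0.10 (SE, edgeR adjusted p = 8.27e-08). Trees 1B and 3B were again the highest at both times. Over the 60 libraries of other collections the log2 levels of the pair had a Pearson r of 0.988, which includes differences between trees. Whether the identifiers stand for separate genes, or for similar sequences that share reads, was not tested.

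Both transcripts rose on the first afternoon too and fell again by 22:00 on both days. On day 1, in libraries that did not choose it, psme_t031092 went from 10.1 ± 13.4 CPM at 14:00 to 26.5 ± 24.1 at 18:00 (SD, n = 6; log2 change 1.73 ± 0.23 SE, edgeR adjusted p = 0.00382). It then fell toward 22:00, with log2 changes of −0.85 ± 0.12 on day 1 (adjusted p = 0.000743) and −1.56 ± 0.24 on day 2 (adjusted p = 0.00129). For psme_t030321 the rise on day 1 was 1.53 ± 0.21 (adjusted p = 0.0046), and the falls to 22:00 were −0.96 ± 0.11 (adjusted p = 0.000205) and −1.54 ± 0.27 (adjusted p = 0.00263). From 10:00 to 14:00 both had already risen on day 1, by 1.01 ± 0.31 for psme_t031092 (adjusted p = 0.0345) and 1.38 ± 0.30 for psme_t030321 (adjusted p = 0.00707). By tree, psme_t031092 went on day 1 from 1.94 to 1.96 CPM in 1A, 10 to 12.6 in 1B and 2.68 to 2.6 in 2A. It went from 1.82 to 3.61 CPM in 2B, 1.6 to 3.74 in 3A and 6.17 to 36.3 in 3B. In the same earlier step of day 2 the pair had log2 changes of 0.30 ± 0.31 and 0.33 ± 0.27. Neither passed (edgeR adjusted p = 0.534 and 0.418). The steps of day 2 on either side share libraries with the afternoon itself.

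The 2 named falls were each over 5-fold within 4 h, and in both the times did not overlap. At 14:00 psme_t027226 stood between 15.7 CPM in 2A and 33.1 CPM in 3A, with a median of 20.7. At 18:00 it stood between 2.27 CPM in 1B and 4.75 CPM in 2B, with a median of 3.74. All libraries of 18:00 lay below all of 14:00. The log2 change of psme_t027226 was −2.56 ± 0.18 (SE), or 5.90-fold down (edgeR adjusted p = 3.28e-06).

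Transcript psme_t014857 stood between 29.7 CPM in 2B and 161 CPM in 3B at 14:00 (median 108), and between 6.34 and 24.3 CPM in the same trees at 18:00. The times did not overlap here either, and 2B was lowest at both. Its log2 change was −2.53 ± 0.10 (SE, edgeR adjusted p = 2.76e-08). Before 14:00 their values were as follows. From 10:00 to 14:00 psme_t027226 rose on both days, by 0.79 ± 0.12 (adjusted p = 0.000708) and 0.96 ± 0.16 (adjusted p = 0.00319). The same step of psme_t014857 was 0.11 ± 0.19 on day 1 (adjusted p = 0.719), where it was already at 151 ± 111 CPM at 10:00 (SD, n = 6), and 0.55 ± 0.11 on day 2 (adjusted p = 0.0068). On day 1 the afternoon falls were −2.49 ± 0.15 for psme_t027226 (adjusted p = 9.62e-05) and −2.67 ± 0.19 for psme_t014857 (adjusted p = 0.000154).

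**Figure D2:**
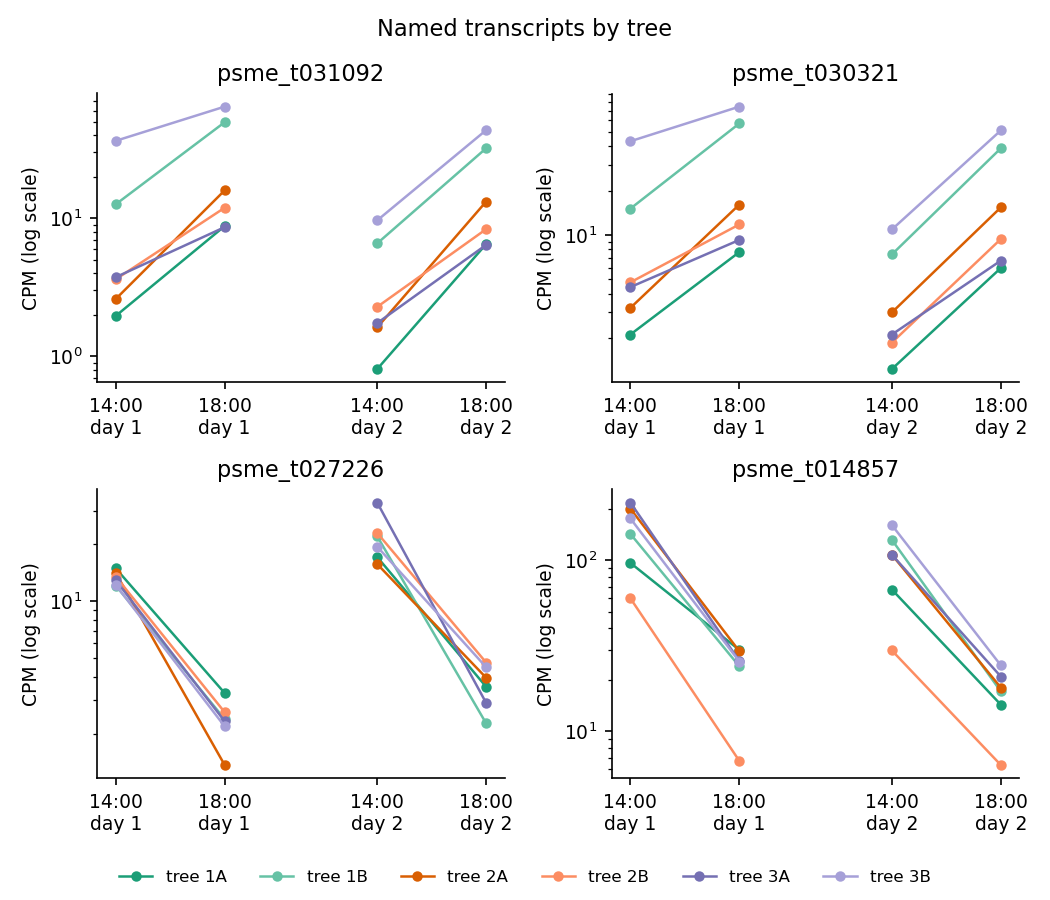
The level (CPM, log scale) of the 4 named transcripts is drawn for each of the 6 trees at 14:00 and 18:00 on day 1 and day 2, with a line joining the libraries of a tree. Every line of psme_t031092 and psme_t030321 goes up and every line of psme_t027226 and psme_t014857 goes down, and 1B and 3B are the highest trees for both rising transcripts.

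No tree stood apart from the rest in the direction of its changes, and 3B followed the others least. Of the 3989 transcripts that rose, between 94.0% (3B) and 97.8% (1B and 2A) were higher at 18:00 in a given tree, and of the 4663 that fell, between 91.8% (3B) and 97.7% (1B) were lower. These shares are a description, since every tree took part in the calls. Across all 37300 transcripts, the changes of 1 tree and the mean changes of the other 5 had a Pearson r of 0.456 in 3B, 0.537 in 2B, 0.550 in 3A, 0.571 in 1A, 0.596 in 2A and 0.621 in 1B. Correlations between single trees ran from 0.287 (2B and 3B) to 0.484 (1B and 2A), and the 3 pairs of the same family lay within that range at 0.452, 0.435 and 0.352. A strict rule for moves in 1 tree alone was met by few of the tested transcripts. Among the 28594 tested with a mean of at least 1 CPM, 1 rose and 5 fell at least 4-fold in a single tree while the other 5 trees moved less than 1.5-fold. The rule passes over a transcript whose level in another tree varied by 1.5-fold or more. The filter on low counts can also remove transcripts found in 1 tree only, so how rare such moves are was not tested. The largest fitted change of all belongs to psme_t090563, chosen after its values were seen. Transcript psme_t090563 had 34165 counts (1450 CPM) in tree 1A at 14:00 and 0 counts at 18:00, against 0.0843 to 1.07 CPM in the other 10 libraries, and its log2 change of −5.46 ± 2.38 (SE) did not pass (edgeR adjusted p = 0.119). The same tree held 256 CPM of psme_t090563 at 22:00 on day 1 and none at 18:00 that day. In tree 2A psme_t090563 went from 0.496 to 1.07 CPM on the second afternoon, more than 1.5-fold, so it is not among the 5 falls. Transcript psme_t004418, also chosen after its values were seen, went from 11 to 338201 counts in tree 1A, or 1.81% of that library at 18:00, against 0 to 3 counts in the other 10 libraries. The filter on low counts left psme_t004418 out, so it has no fitted change and is not among the 28594.

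To ask whether families differ in the step, the interaction of time and family was tested. It passed 1 transcript, psme_t057449 (0.00268% of 37300; edgeR adjusted p = 0.0363), which is named because it was the only one. The count of transcripts was 0 without tree 1A, 8 without 1B, 2 without 2A, 1 without 2B, 180 without 3A and 52 without 3B. With no TMM factors it was 7. It was 0 under a filter of 1 CPM in all 12 libraries and 0 without the tree in the model. In the 3 fits that passed 0, an unadjusted p under 0.05 was found for 2393 of 37300, 1521 of 21148 and 35 of 37300. In family 3 psme_t057449 went from 60.4 to 7.46 CPM in 3A and from 101 to 14.2 CPM in 3B. In the trees of families 1 and 2 it stayed between 0.414 and 1.4 CPM at both times. The log2 difference was −3.00 in 3A and −2.82 in 3B, and −0.60, −0.17, −0.27 and 0.80 in 1A, 1B, 2A and 2B. Over all 72 libraries psme_t057449 ranged from 2.82 to 101 CPM in the 24 of family 3 and from 0.0704 to 1.93 CPM in the 48 of the other families. On day 1 it went from 77.7 to 9.01 CPM in 3A and from 18.4 to 11.2 CPM in 3B. That step holds the shift between collections described below, which was unequal between trees. A fall of unlike size in the 2 trees cannot be told apart from it. The interaction of psme_t057449 missed the threshold without tree 1A (adjusted p = 0.0678) and without 2B (adjusted p = 0.0728). The 1 transcript that passed without 2B was therefore another. In the fit of all trees an unadjusted p under 0.05 was found for 2309 of 37300 transcripts. With no family effect a share of about 0.05 would be found. With 2 trees per family, and with tags of families 1 and 2 that carry the same number, the test rests on few trees.

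**Figure D3:**
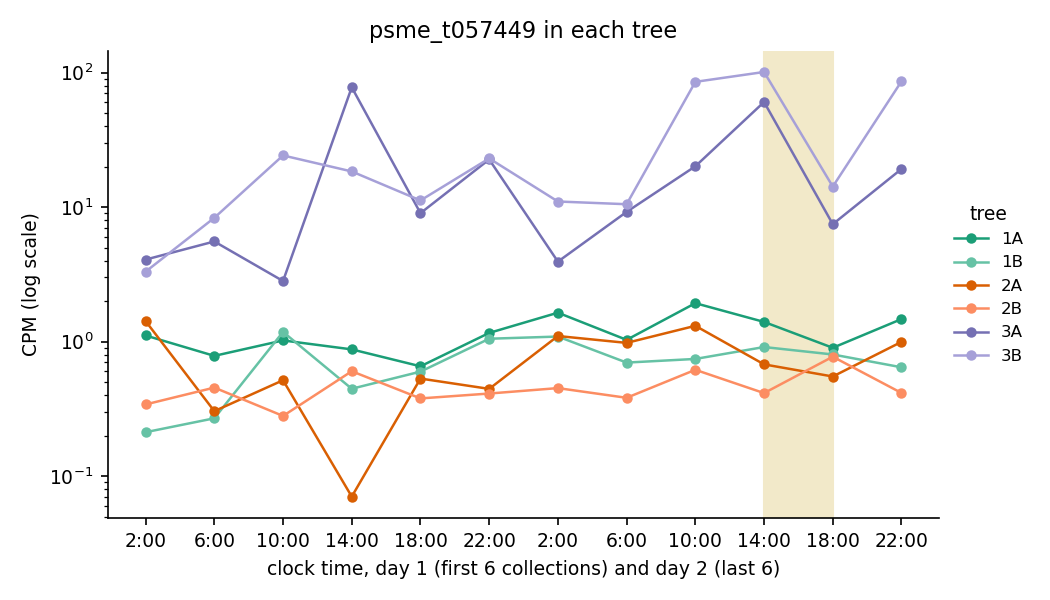
The level of psme_t057449 (CPM, log scale) is drawn for each tree over the 12 collections, with the second afternoon shaded. Trees 3A and 3B lie between 2.82 and 101 CPM and drop across the shaded step, while the other 4 trees lie between 0.0704 and 1.93 CPM throughout.

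The first afternoon, shown as a check, moved most of the called transcripts the same way. The step from 14:00 to 18:00 on day 1 uses 12 other libraries of the same trees, but one limit applies. An earlier treatment of these data found a shift, unequal between trees, between the first 4 and the last 8 collections, and it falls into this step. The shift was not measured again here. The step passed 717 rises (1.92%) and 1048 falls (2.81%), fewer than on day 2, and its median standard error was 0.208 on the log2 scale against 0.135, the widest of the 6 steps fitted. The 1765 calls on day 1 dropped to 598 without tree 1B, 607 without 2B and 677 without 3A, and the shares of day 1 calls below rest on all 6 trees. Of the 3989 transcripts that rose on day 2, 3507 (87.9%) had a higher fitted level at 18:00 on day 1 and 483 (12.1%) passed as rises, while 1 passed as a fall. Of the 4663 that fell, 3980 (85.4%) were lower and 815 (17.5%) passed as falls, and 7 passed as rises. The shared 483 and 815 make up 67.4% of the rises and 77.8% of the falls called on day 1. Over all transcripts 52.2% were higher at 18:00 on day 1. The median change on day 1 was 0.33 for transcripts that rose on day 2, −0.35 for those that fell and 0.02 for all tested. Across all 37300 transcripts the changes of the 2 afternoons had a Pearson r of 0.596. Across the 8652 called it was 0.769, a description, since choosing transcripts by their change on day 2 can by itself raise r. The 2 afternoons share the 6 trees but no library.

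**Figure D4:**
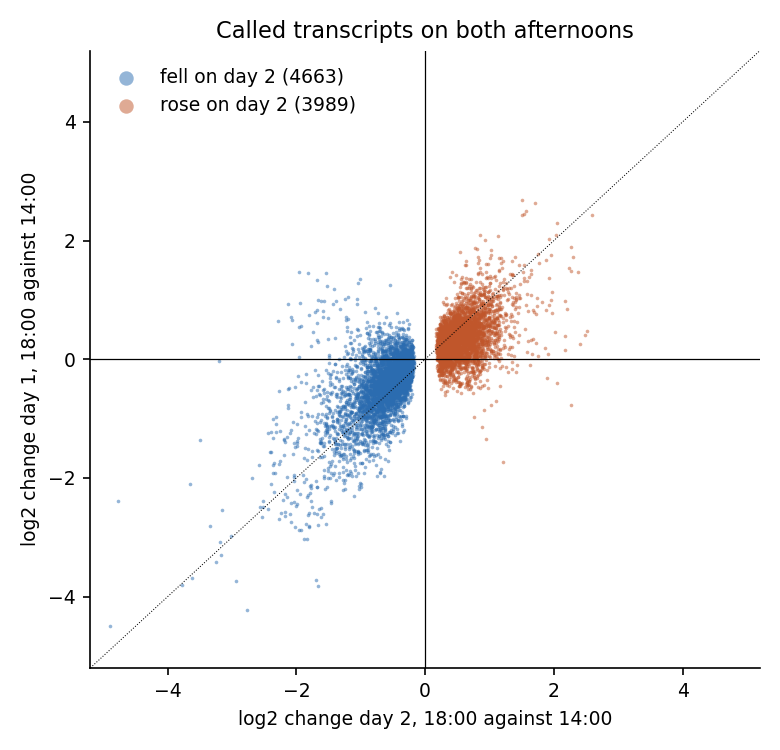
Each of the 8652 transcripts called on day 2 is placed by its log2 change from 14:00 to 18:00 on day 2 (horizontal) and on day 1 (vertical), with the line of equal change dotted. Most points lie in the quadrants of like sign (3507 of 3989 rises and 3980 of 4663 falls). On day 1, 683 of the falls lie above 0 and 482 of the rises lie below it.

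The difference between the afternoons was itself tested, and 23 of 37300 transcripts passed (0.0617%, with 4076 at an unadjusted p under 0.05). The count was 0 without tree 1B and 0 without 2B (2903 and 2476 at an unadjusted p under 0.05), 13 without 2A, 7 without 3A, 1 without 3B and 30 without 1A. It was 37 under a filter of 1 CPM in all 12 libraries, and 0 without the tree by day block (920 at an unadjusted p under 0.05) and 3 without TMM factors. Of the 23 16 had a lower and 7 a higher level at 18:00 on day 2. Among the 16, the median log2 change was −0.54 on day 2 and 0.31 on day 1, and 13 of them were higher at 18:00 on day 1. These values are a description, since the same libraries chose the 23. The shift between collections lies in the same contrast and cannot be told apart from a changed afternoon.

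Transcripts that rose on the second afternoon were most often lowest at 10:00 and highest at 18:00 in other collections too. Their course was read from 5 collections that follow the shift and hold no library of the step, 18:00 and 22:00 on day 1 and 2:00, 6:00 and 10:00 on day 2. Of the 3989 that rose, 46.8% had their highest mean of the 5 at 18:00 and 19.3% at 22:00, against 28.3% and 12.0% of all transcripts tested. Their lowest mean was at 10:00 in 62.4%, against 26.8% of all. Among the 328 that rose at least 2-fold these shares were 50.6%, 18.6% and 64.9%.

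Transcripts that fell were most often highest at 10:00 among the same collections, which hold no 14:00. Of the 4663, 55.8% had the highest mean of these collections at 10:00, against 25.7% of all transcripts tested, and 40.9% had the lowest at 18:00, against 23.9%. Among the 721 that fell at least 2-fold, 71.4% were highest at 10:00. Their lowest mean was at 18:00 in 35.9%, against 23.9% of all, and at 6:00 in 32%, against 24.6%. It was at 22:00 in 14.3% and at 2:00 in 13.9%, against 14.1% and 10.7% of all. On day 1, before the shift, the median log2 level of the 721 was higher at 14:00 than at 10:00. Relative to each transcript's own mean it was 0.51 at 14:00 and 0.12 at 10:00.

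**Figure D5:**
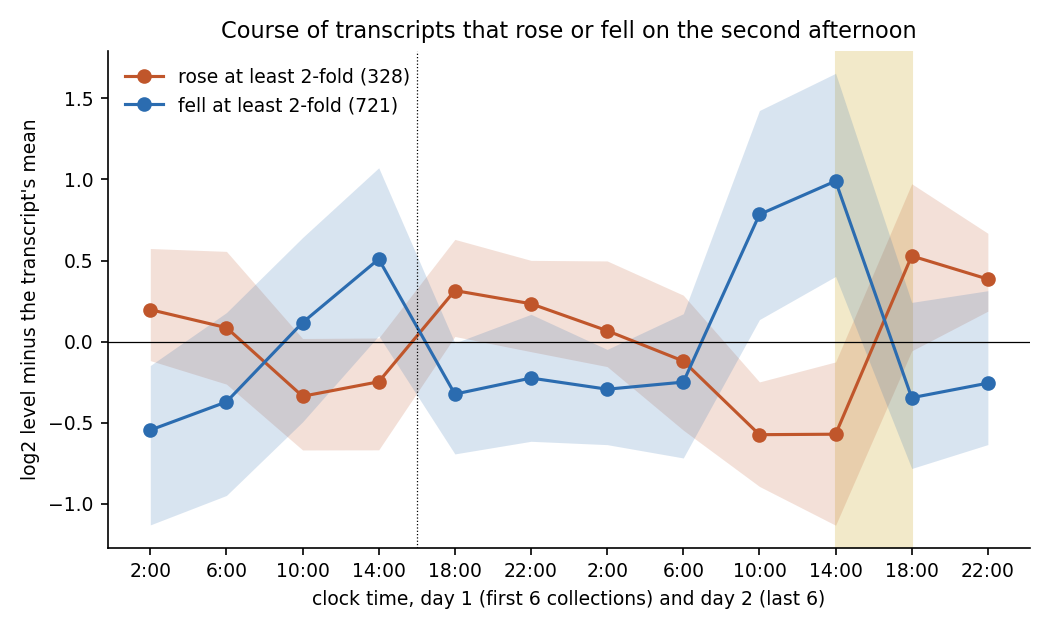
The median course of the 328 transcripts that rose (orange) and the 721 that fell (blue) at least 2-fold on the second afternoon is drawn over 12 collections, as the mean log2 level of the 6 trees minus the transcript's own mean, with the interquartile range shaded. The yellow band is the step that chose them, the dotted line marks the shift between collections on day 1, and outside the band the falling group peaks at 10:00 on day 2 (0.78) and the rising group is lowest there (−0.57).

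The called transcripts were also followed through the day 1 steps on either side of the afternoon. In the step from 10:00 to 14:00 on day 1, rises made up 13.2% and falls 11.5% of all transcripts. Among those that fell on the second afternoon, 25.7% had risen in that step and 13.5% had fallen, and among those that fell at least 2-fold 30.5% had risen. Among those that rose on the second afternoon, 16.7% rose and 15.8% fell in that step. In the step from 18:00 to 22:00 on day 1 the shares of all transcripts were 7.96% for rises and 6.6% for falls. Of those that fell on the second afternoon, 16.6% rose there and 8.58% fell. Of those that rose on it, 9.15% rose there and 12.6% fell. In the medians the steps were small, 0.10 and 0.08 for the transcripts that fell and 0.01 and −0.06 for those that rose. Of the 4663 that fell, 99 (2.12%) rose in both of these day 1 steps, 298 (6.39%) rose and then fell, and 223 (4.78%) fell and then rose. Of all 37300 these patterns held for 289 (0.775%), 1321 (3.54%) and 990 (2.65%). On the second afternoon the median standard error was 0.111 for transcripts that fell and 0.113 for those that rose. It was 0.143 for those not called, and the part of this difference in the shares above was not tested. On day 2 itself the morning step into 14:00 passed 12.8% of all transcripts as rises and 9.47% as falls. The step out of 18:00 passed 10.5% and 9.27%. Those steps share libraries with the afternoon, so no overlap with it is given.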

How the data were processed

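Needle polyA RNA was sequenced as strand-specific libraries, per the labels' protocols. The counts as deposited by the authors are raw whole-number counts for 180879 transcripts in 72 libraries. Per the submitters' processing notes they were made with CASAVA 1.8 and Bowtie2 2.2.3. The reference transcriptome, the strand setting and the handling of reads with several matches have no statement in the sources used here. The authors also deposited normalized signal values of 41382 transcripts (DESeq is among the tools in the submitters' processing notes), and these served 1 alternative.

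Libraries were assigned to tree and collection by title. A separate collection-time label disagrees with most titles and was not used. Transcripts were kept by edgeR's filterByExpr (minimum count 10, total 15) over the 12 libraries, which left 37300 with 96.9% to 99.4% of each library's counts. TMM factors and quasi-likelihood F tests came from edgeR 4.0.16 under R 4.3.3, with tree as a block and Benjamini-Hochberg adjustment over all 37300. The threshold was an adjusted p of 0.05. Standard errors are the log2 change over the root of F. Other steps were fitted in the same way on their own 12 libraries. CPM of other collections were scaled over all 72 libraries. Trees form the pairs by the labels. Deviations from the time means correlated at 0.804 to 0.863 between libraries of a tree and at most 0.316 between trees (log2 CPM, prior count 2).

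Named transcripts are the 2 largest rises and 2 largest falls under the conditions given in the text. Alternatives used DESeq2 1.42.0, limma 3.58.1 on log2(signal + 1), other scalings, filters, thresholds and sets of libraries, and each tree left out. The paired step test and the family interaction were run on simulated counts with known changes. The day interaction and the sign-flip test were not. Plots come from matplotlib 3.10.9 in Python 3.11.15. The members, rules and tests were chosen with earlier results of these data known. Counting intervals were not needed because errors come from the 6 trees, and p-values cover the spread between these trees on 1 date.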

Additional observations from a re-analysis of the deposited data

Results flagged for a closer look

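The library of tree 2B at 14:00 held 41.2 M counts (41170331), far from the 23.8 to 29.3 M of the other 5 trees at that time. Of 16 groups of 6 libraries looked at in this way, chance gives about 0.8. With every library thinned to the smallest total, an alternative chosen after seeing the data, 7634 transcripts passed, of which 7198 were among the 8652 and had the same direction. Without tree 2B 7475 passed.

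The step from 14:00 to 18:00 differed between families for 1 transcript and between days for 23, both by a test of the interaction. The second contrast includes the shift between collections on day 1.

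Of 247 transcripts that have normalized values but no counts, and so enter no comparison above, 6 (2.43%) changed on the second afternoon (2 rose and 4 fell, limma on log2 signal with tree as a term, adjusted over 41382 transcripts). The same test called 8182 of the 41382 (19.8%).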

How the results depend on the processing

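On the second afternoon the count of calls was within 1.5 times of 8652 with DESeq2 (6625), library totals alone (8560), upper-quartile factors (9189), no filter (9137), 1 CPM in all 12 libraries (6429), the last 8 collections in 1 fit (6399), the authors' normalized values (8182), thinned libraries (7634) and each tree left out (6253 to 8472). All 72 libraries with tree by block of collections gave 5564 calls (2537 rises, 3027 falls), and an adjusted p under 0.01 gave 4346 (1741 and 2605). A test against 1.5-fold gave 642 (155 and 487, of at least 2-fold 134 and 436). With no replicate block, that is without pairing by tree, it was 300 (69 and 231, of at least 2-fold 26 and 138). Rises and falls of at least 2-fold were 1195 and 1577 without a filter, which adds weakly counted transcripts, and 44 and 217 with 1 CPM in all 12 libraries, which tests 21148. The 4 named transcripts kept their direction throughout. Without the block psme_t031092 and psme_t030321 did not pass (adjusted p = 0.195 and 0.197), and the first has no value under the 1 CPM filter.

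On day 1 the calls were 1765, and 526 with no replicate block (183 rises, 343 falls). They ranged from 598 to 1613 with a tree left out (rises 162 to 596, falls 428 to 1056), lowest without 1B, 2B (607) or 3A (677), and rises were 444 without TMM factors. The family difference passed 0 under the 1 CPM filter and with no replicate block (1521 of 21148 and 35 of 37300 at an unadjusted p under 0.05). It passed 7 without TMM factors and 0 to 180 with a tree left out. By tree these were 0 without 1A, 8 without 1B, 2 without 2A, 1 without 2B, 180 without 3A and 52 without 3B. The day difference passed 37 under the 1 CPM filter, 0 with no replicate block (920 at an unadjusted p under 0.05), 3 without TMM factors and 0 to 30 with a tree left out (0 without 1B or 2B, 13 without 2A, 7 without 3A, 1 without 3B). The causes were not tested.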

Other observations

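A small group fell on the second afternoon and had fitted changes of the other sign on the first, where 0 of its members passed as rises. It was picked after the data were seen, as transcripts that fell at least 2-fold on day 2 and were at least 0.5 higher (log2) at 18:00 than at 14:00 on day 1. The group holds 37 of the 721 that fell at least 2-fold, with a median level of 2.15 CPM. The share of all transcripts that were as much higher on day 1 is not given. In the step from 14:00 to 18:00 on day 1, 1.92% of all transcripts tested passed as rises, and their median standard error was 0.208 over all tested. Whether errors of that size could give such a group was not tested. The values at 14:00 and 18:00 below are a description, since they chose the group. Relative to their own means the median log2 level of the 37 transcripts was −1.65 at 2:00 and −0.70 at 14:00 on day 1. After the shift it stood at 0.73 at 22:00 on day 1, and at −0.28 at 2:00 and −0.65 at 6:00 on day 2. It stood at 1.97 at 10:00 and 1.77 at 14:00 on day 2, at 0.46 at 18:00 and again at 1.68 at 22:00. At 10:00 on day 2 tree 3A was at −0.32 and 2A at 0.49, while the other 4 trees were at 1.91 to 3.46. The step from 6:00 to 10:00 on day 2 lies after the shift, while the step from 14:00 to 18:00 on day 1 holds it and cannot be told apart from it.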
